A study of Homo sapiens with 8 samples.

Results

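The genes described are 32 genes that act in mitosis, of 17515 gene symbols represented on expression arrays of CAL-27 cells, an established line from a human squamous carcinoma of the tongue. The list was drawn up with earlier results of these data known. Its probes were found by name, not by their signal. A probe was taken when the gene name in the scanner tables was that of a member. Older names were accepted for CDK1 (CDC2), NDC80 (KNTC2), NUF2 (CDCA1) and DLGAP5 (DLG7). This gave 38 probes. The accession of 36 of them named the same gene in the RefSeq gene table, and the accession of the other 2 was not in that table. All 32 genes were tested, among 12640 genes with a probe above background on at least 2 of the 8 arrays. The probe that stood for each member, the one with the highest mean signal, was above background on all 8 arrays and saturated on none.

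The study compared cells given 2 inhibitors of protein kinase C with control cells. The groups were cells given enzastaurin at 10 µM (n = 3 arrays), cells given an inhibitor that the labels call Go (n = 2 arrays, dose not given in the sources used here) and control cells (n = 3 arrays). Cells were kept without serum for 24 h, and the inhibitors were given for 24 h. Total RNA was labelled with Cy3 and each sample was hybridised alone. A single cell line was used, and the labels do not say that replicates came from separate cultures, so the p-values measure the spread between these samples, which may be technical.

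Mitosis is driven by CDK1 with its cyclins, held at metaphase by the spindle assembly checkpoint, and ended when the anaphase-promoting complex marks cyclin B1 and securin for destruction. Transcripts of most of these genes are low in resting cells and accumulate late in the cell cycle under the control of the MuvB complex, B-MYB and FOXM1, so a culture with more cells in G2 and mitosis holds more of them. In RNA from a whole culture, fewer cells of a kind and less RNA per cell cannot be told apart.

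Promoters of such genes often carry a pair of short elements. They are shown for the 6 members that passed the test against control with both inhibitors and have an entry in the RefSeq promoter table (GRCh38.p14): ANLN and TOP2A, which were higher, and GTSE1, PRC1, CCNA2 and KIF20A, which were lower. Each sequence is the 250 bases before the annotated start, 5′ to 3′ on the strand of the gene. Capitals mark TTTGAA, a form of the cell cycle genes homology region that reads TTCAAA when it lies on the other strand. They also mark CCAAT, the element bound by NF-Y, which then reads ATTGG. The windows are chr7:36389612-36389861 (plus strand) for ANLN, chr17:40417897-40418146 (minus) for TOP2A, chr22:46296620-46296869 (plus) for GTSE1, chr15:90994536-90994785 (minus) for PRC1, chr4:121823884-121824133 (minus) for CCNA2 and chr5:138178862-138179111 (plus) for KIF20A.
ANLN: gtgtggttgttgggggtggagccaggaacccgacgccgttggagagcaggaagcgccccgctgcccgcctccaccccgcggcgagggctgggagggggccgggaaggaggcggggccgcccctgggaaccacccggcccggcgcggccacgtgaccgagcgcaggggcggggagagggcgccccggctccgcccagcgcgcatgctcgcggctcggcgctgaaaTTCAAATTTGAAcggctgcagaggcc
TOP2A: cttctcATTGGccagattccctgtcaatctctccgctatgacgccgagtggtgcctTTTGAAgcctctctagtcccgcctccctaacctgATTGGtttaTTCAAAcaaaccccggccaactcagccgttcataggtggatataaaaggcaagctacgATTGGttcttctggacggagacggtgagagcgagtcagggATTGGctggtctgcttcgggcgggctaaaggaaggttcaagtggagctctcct
GTSE1: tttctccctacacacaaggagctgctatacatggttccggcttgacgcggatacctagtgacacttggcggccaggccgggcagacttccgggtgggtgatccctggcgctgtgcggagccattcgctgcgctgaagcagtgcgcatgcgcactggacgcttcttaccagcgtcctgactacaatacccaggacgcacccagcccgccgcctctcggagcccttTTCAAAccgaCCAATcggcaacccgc
PRC1: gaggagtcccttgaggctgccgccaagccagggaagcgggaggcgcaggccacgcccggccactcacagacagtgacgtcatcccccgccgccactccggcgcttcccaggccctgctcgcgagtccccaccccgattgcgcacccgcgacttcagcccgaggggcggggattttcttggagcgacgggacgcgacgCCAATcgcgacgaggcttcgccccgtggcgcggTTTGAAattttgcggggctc
CCNA2: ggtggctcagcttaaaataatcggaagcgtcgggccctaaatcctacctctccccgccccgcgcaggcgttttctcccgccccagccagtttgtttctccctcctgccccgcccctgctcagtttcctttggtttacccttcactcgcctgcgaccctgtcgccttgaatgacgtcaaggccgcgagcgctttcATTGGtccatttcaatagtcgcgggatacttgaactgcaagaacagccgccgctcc
KIF20A: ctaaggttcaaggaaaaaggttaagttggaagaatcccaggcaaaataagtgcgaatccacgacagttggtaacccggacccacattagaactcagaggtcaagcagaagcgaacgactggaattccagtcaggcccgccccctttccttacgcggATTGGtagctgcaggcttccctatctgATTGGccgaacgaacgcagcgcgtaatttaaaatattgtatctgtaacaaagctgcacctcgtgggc

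In ANLN, 2 copies of TTTGAA stood side by side, beginning 26 and 20 bases before the start. In GTSE1 the element began 26 bases before the start and in PRC1 20 bases before it, each with a single CCAAT in the window. TOP2A held 4 CCAAT elements and 2 copies of TTTGAA farther upstream. CCNA2 and KIF20A held CCAAT, and the letters TTTGAA were not in this window.

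The wider count used the 300 bases around the start (250 before and 50 after), which the table gives for 26 of the 32 members. TTTGAA or TTCGAA, on either strand, was present in 21 of the 26 (80.8%), against 16.6% of all 27303 promoters in the table. CCAAT, on either strand, was present in 21 of the 26 (80.8%), against 35.7% of all promoters, and both together were present in 17 (65.4%) against 6.58%. In CDCA8 and MKI67 a copy of each shared a base. TTTGAA or TTCGAA was present in 6 of 6 promoters of members that rose with enzastaurin, in 6 of 8 of those that fell, and in 9 of 12 of those that passed the test in neither direction. These are counts of letters and not of bound sites.

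The arrays stood apart in ways that touch every comparison. Spot positions placed control 1, control 2, control 3 and Go 1 together and enzastaurin 1, enzastaurin 2, enzastaurin 3 and Go 2 together, in even steps along each set, as the arrays of a pair of slides would lie. The files name no slide. Enzastaurin and control then share no slide, and only the Go arrays link both. On the first principal component over all genes tested (76.8% of the variance), the enzastaurin arrays lay between -31.8 and -28.6 and Go 2 at -23.3, while control 1, control 2 and control 3 lay at 49.9, 42 and 21.7. Go 1 lay at -0.0276, between the controls and the other treated arrays. Of the 12 keratinocyte markers, 11 had a probe and all 11 were above background on every array. Their summed signal was 100712 to 122672 with enzastaurin and 84046 to 92732 with Go, against 73702 to 91090 in control. These sums are of signal before normalisation, on arrays whose 75th percentile was 378 to 457 with enzastaurin and 316 to 384 with Go, against 251 to 342 in control. After normalisation 2 of the 11 were higher and 2 lower with enzastaurin (median difference -0.19), and 0 were higher and 5 lower with Go (median -0.36). Each of the 5 fibroblast markers was above background on some arrays, and none was above it on every array. Of the 3 that were tested, 1 was higher and 0 lower with enzastaurin after normalisation, with differences of -0.27 to 0.63. With Go none of them was called higher or lower (-0.18 to 0.30). PTPRC and LYZ of the 6 leukocyte markers and PECAM1, KDR and TEK of the 5 endothelial markers were above background on no array. The endothelial marker VWF was above it on every array. CD3E, CD14 and HLA-DRA were above it on all 8, and the summed leukocyte signal was 1720 to 1968 with enzastaurin and 1088 to 1208 with Go, against 675 to 858 in control, also before normalisation. After it 1 of these 3 was higher and 1 lower with each inhibitor, with differences of -0.69 to 1.13 for enzastaurin and -0.41 to 0.50 for Go. The part of these differences in the results below was not tested.

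**Figure D1:**
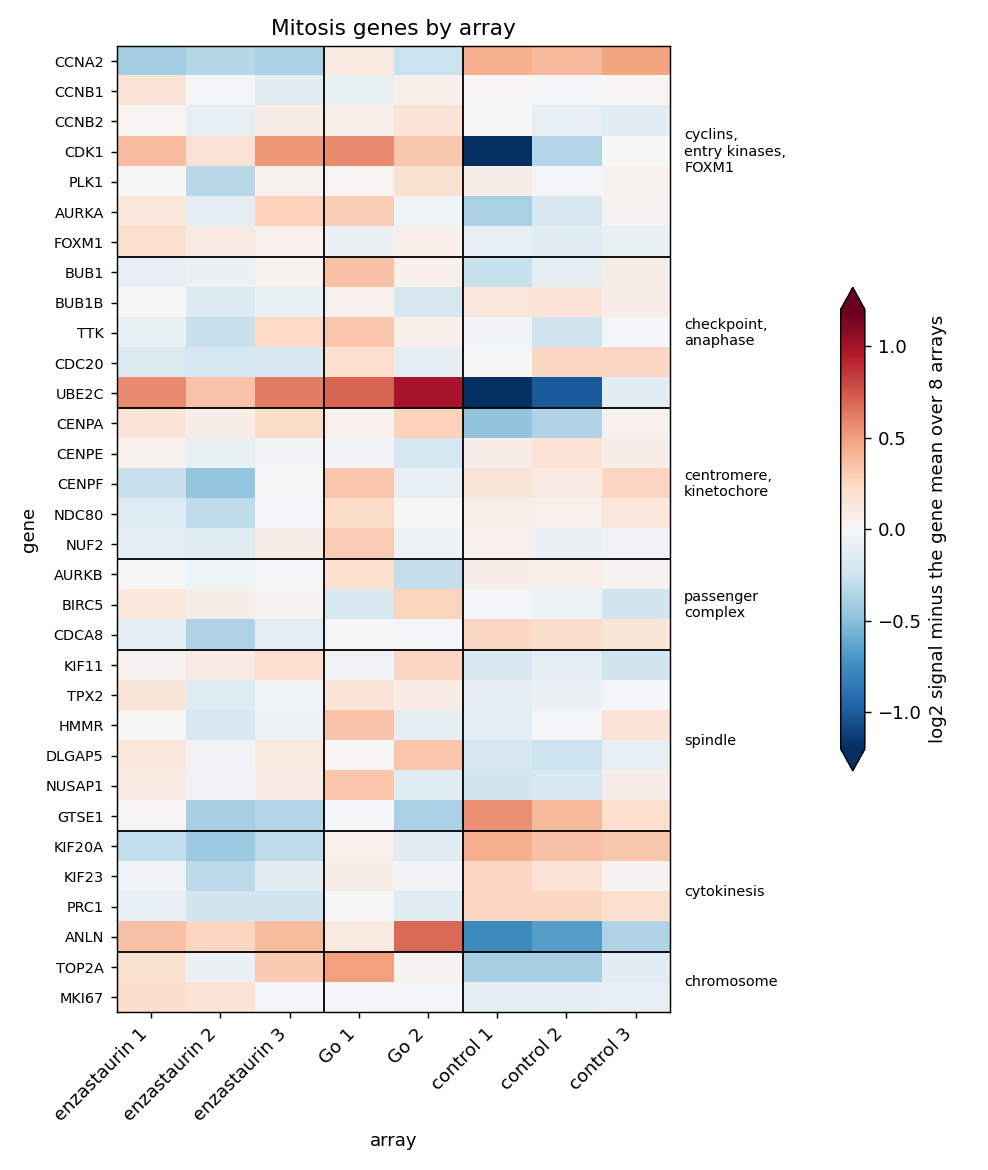
Signal of the 32 mitosis genes on each of the 8 arrays, as log2 normalised signal minus the mean of the gene over the 8 arrays (colour, from blue below the mean to red above it; the scale ends at 1.2 either way). Genes run down the page by role. UBE2C, CDK1 and ANLN are red on all 5 treated arrays and blue on control 1 and control 2, CCNA2 and KIF20A run the other way on the enzastaurin arrays, and most other rows are pale.

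Values below are log2 of the quantile-normalised signal plus 50, called log2 signal, and differences are on the same scale, with the standard error of the limma fit over all 3 groups. A gene passed the test where its p, adjusted over all 12640 genes by the Benjamini-Hochberg method, was at most 0.05. Levels of different probes are not comparable with each other.

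With enzastaurin, 16 of the 32 mitosis genes passed the test against control, 8 higher and 8 lower, where 55.1% of all genes tested passed it (18% higher and 37.1% lower). The 8 that rose were CDK1, FOXM1, UBE2C, CENPA, KIF11, ANLN, TOP2A and MKI67. The 8 that fell were CCNA2, CDC20, CENPF, CDCA8, GTSE1, KIF20A, KIF23 and PRC1. The median difference over the 32 genes was 0.02, and over all genes -0.15, with members between -0.81 and 1.58. The enzastaurin and control arrays did not overlap for 22 members, 10 higher and 12 lower, where 68.6% of all genes did not overlap (22.1% higher and 46.4% lower).

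The split between higher and lower depended on the scaling, and no call was kept in the fit with the slide as a block. With each array scaled to its median in place of quantile normalisation, 15 members were higher and 3 (CCNA2, KIF20A and GTSE1) were lower, where 47% of all genes passed the test. Among the 15 were CCNB2, AURKA, BUB1, TPX2, BIRC5, DLGAP5 and NUSAP1, which did not pass with quantile normalisation. That scaling moved the median difference of all genes to 0.03 and that of the members to 0.29. Of the genes that passed, 56.3% were then higher, against 32.7% with quantile normalisation. Relative to the median of all genes, the member median was 0.17 with quantile normalisation and 0.26 with median scaling. None of the 32 members passed with the slide as a block (3.75% of all genes did), and 6 had an unadjusted p under 0.05 in the limma fit. The block fit links enzastaurin and control only through Go 1 and Go 2, so it is less precise. Its median standard error over the members was 0.179, against 0.108 without the block. A call lost there is therefore not a measure of a slide effect, which was not tested. In that fit the enzastaurin differences of FOXM1 (0.09, adjusted p = 0.708), CENPA (0.19, adjusted p = 0.667) and GTSE1 (-0.26, adjusted p = 0.54) were also smaller than without the block. The sign of 15 of the 16 called members was the same in every setting run, the exception being CENPF.

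Calls also depended on single arrays. CCNA2, UBE2C, GTSE1, KIF20A, ANLN, CDCA8 and PRC1 passed for enzastaurin with any array left out. The other 9 called members missed the threshold without at least 1 array, with an adjusted p of 0.0508 to 0.141. These were 8 of them without enzastaurin 1, 8 without enzastaurin 2, 7 without enzastaurin 3, 7 without control 1, 8 without control 2 and 2 without control 3. In all, 8 members passed without enzastaurin 1, without enzastaurin 2 or without control 2, 9 without control 1 and 10 without enzastaurin 3. Fewer arrays enter those fits, and the share of all genes that passed in them is not given here. Without Go 2, which enters this comparison through the estimate of the spread, 19 passed (60.3% of all genes did).

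Go gave fewer calls. Against control 8 members passed, 4 higher (UBE2C, DLGAP5, ANLN and TOP2A) and 4 lower (CCNA2, GTSE1, KIF20A and PRC1), where 31.7% of all genes passed (11.7% higher and 20% lower). The median difference was 0.10 over the members and -0.11 over all genes. The Go and control arrays did not overlap for 18 members, 11 higher and 7 lower, where 57% of all genes did not overlap (19.1% higher and 37.9% lower). With median scaling 10 members were higher and 1 (CCNA2) lower, where 23.1% of all genes passed, and the medians were 0.27 over the members and -0.01 over all genes. Among the 10 were CDK1, AURKA, BUB1, CENPA, KIF11 and TPX2, which did not pass with quantile normalisation. Of the genes that passed, 59.4% were then higher, against 36.8%. With the slide included, the comparison is that of Go 1 with the controls, and TOP2A and ANLN passed (6.57% of all genes did). Leaving out Go 2 gives the same fit for this comparison, so it adds no second result. Of the members, 1 (ANLN) passed without control 2 and 5 passed without control 1 or without enzastaurin 1. The share of all genes that passed in those fits, which hold fewer arrays, is not given here. The comparisons of enzastaurin and of Go use the same control arrays. In both, TOP2A, UBE2C and ANLN were higher and CCNA2, KIF20A, PRC1 and GTSE1 lower, while 15 members passed in neither.

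**Figure D2:**
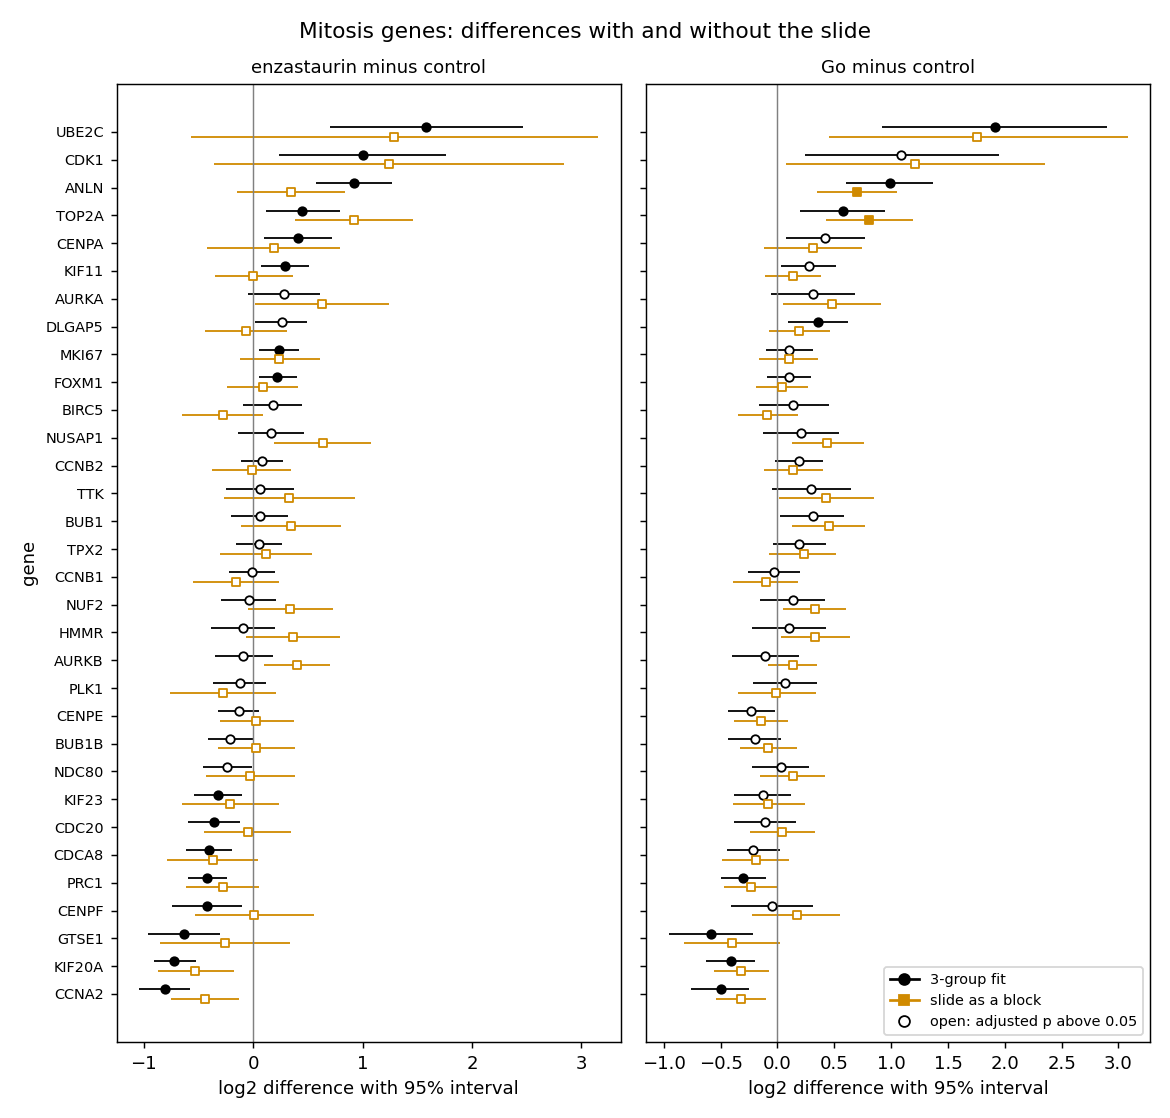
Log2 difference of each of the 32 mitosis genes from control with its 95% interval, for enzastaurin (left) and Go (right). Black circles are the fit over 3 groups, ochre squares the same fit with the slide as a block, and filled symbols mark an adjusted p of at most 0.05. With the slide as a block no symbol is filled for enzastaurin, and for Go those of ANLN and TOP2A are.

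Of the 7 cyclins and kinases of mitotic entry and their regulator, CDK1 and FOXM1 rose with enzastaurin and CCNA2 fell. CDK1, the kinase that drives entry, had a log2 signal of 11.66, 11.47 and 11.81 in enzastaurin and 11.86 and 11.62 in Go, against 9.70, 10.94 and 11.29 in control. All 5 treated arrays lay above all 3 controls, and control 1 lay well below the other controls. The difference was 1.0 ± 0.337 (SE) for enzastaurin (adjusted p = 0.0319). For Go it was 1.09 ± 0.377 and missed the threshold (adjusted p = 0.0534). CDK1 missed the threshold for enzastaurin without any one of the enzastaurin arrays (adjusted p = 0.0585 to 0.099). Without control 1 its differences were 0.53 for enzastaurin (adjusted p = 0.0212) and 0.62 for Go (adjusted p = 0.043).

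CCNA2 encodes cyclin A2, which acts in S phase and up to early mitosis. Its log2 signal was 8.53, 8.61 and 8.57 in enzastaurin and 9.06 and 8.69 in Go, against 9.38, 9.34 and 9.42 in control. The groups did not overlap and each control array lay above every treated array. CCNA2 fell by 0.81 with enzastaurin (SE 0.101, adjusted p = 0.000482) and by 0.50 with Go (SE 0.113, adjusted p = 0.0157). The slide block gave CCNA2 differences of -0.44 for enzastaurin (adjusted p = 0.0963) and -0.32 for Go (adjusted p = 0.0841).

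CCNB1, cyclin B1, the partner of CDK1 at mitotic entry, had a log2 signal of 13.84, 13.67 and 13.55 in enzastaurin and 13.59 and 13.74 in Go, against 13.70, 13.67 and 13.71 in control. The groups overlapped fully. The difference was -0.01 for enzastaurin, with a 95% interval of -0.22 to 0.20, and -0.03 for Go, with an interval of -0.26 to 0.20. With median scaling the CCNB1 differences were 0.27 and 0.15, so their sign depended on the scaling.

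FOXM1, a transcription factor that drives genes of G2 and mitosis, had a log2 signal of 10.79, 10.70 and 10.65 in enzastaurin and 10.53 and 10.66 in Go, against 10.50, 10.46 and 10.51 in control. The enzastaurin arrays lay above the control arrays by a narrow margin. The difference was 0.22 ± 0.078 for enzastaurin (adjusted p = 0.0375) and 0.10 ± 0.0873 for Go (adjusted p = 0.365). CCNB2 (cyclin B2), PLK1 and AURKA (kinases of centrosome and spindle maturation) passed in neither comparison. AURKA had 0.28 for enzastaurin and 0.31 for Go, and its enzastaurin and control arrays overlapped. With median scaling AURKA passed in both, with 0.56 for enzastaurin (adjusted p = 0.00644) and 0.47 for Go (adjusted p = 0.043).

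Among the 5 genes of the checkpoint and of anaphase ubiquitination, UBE2C rose and CDC20 fell with enzastaurin. UBE2C, the ubiquitin-conjugating enzyme that works with the anaphase-promoting complex, had the largest difference of all 32 members in both comparisons with control. Its log2 signal was 13.69, 13.47 and 13.74 in enzastaurin and 13.82 and 14.11 in Go, against 11.04, 12.12 and 13.00 in control. The deposited signal before normalisation was 15031, 15039 and 14623 in enzastaurin and 14642 and 17454 in Go, against 1602, 3107 and 7609 in control. The treated arrays were close together and all above the controls, and the controls were spread over a range of 1.96 in log2 signal.

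UBE2C rose by 1.58 ± 0.391 with enzastaurin (adjusted p = 0.0086) and by 1.91 ± 0.438 with Go (adjusted p = 0.0165). Without control 1 these were 1.08 (adjusted p = 0.0093) and 1.41 (adjusted p = 0.0231). Without control 3 they were 2.06 and 2.38, and without control 2 the Go difference missed the threshold (adjusted p = 0.0542). In the fit with the slide UBE2C had 1.29 for enzastaurin (adjusted p = 0.326) and 1.76 for Go (adjusted p = 0.0961). The control range of UBE2C was the 35th widest among the 12640 genes and that of CDK1, at 1.59, the 70th.

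CDC20, the activator of the anaphase-promoting complex that the checkpoint holds back, had a log2 signal of 12.29, 12.25 and 12.27 in enzastaurin and 12.67 and 12.36 in Go, against 12.46, 12.71 and 12.71 in control. It fell by 0.36 with enzastaurin (SE 0.106, adjusted p = 0.0193), and the difference was -0.05 with the slide as a block (adjusted p = 0.871). The Go and control arrays of CDC20 overlapped. The checkpoint kinases BUB1 and TTK and the checkpoint protein BUB1B passed in neither comparison.

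**Figure D3:**
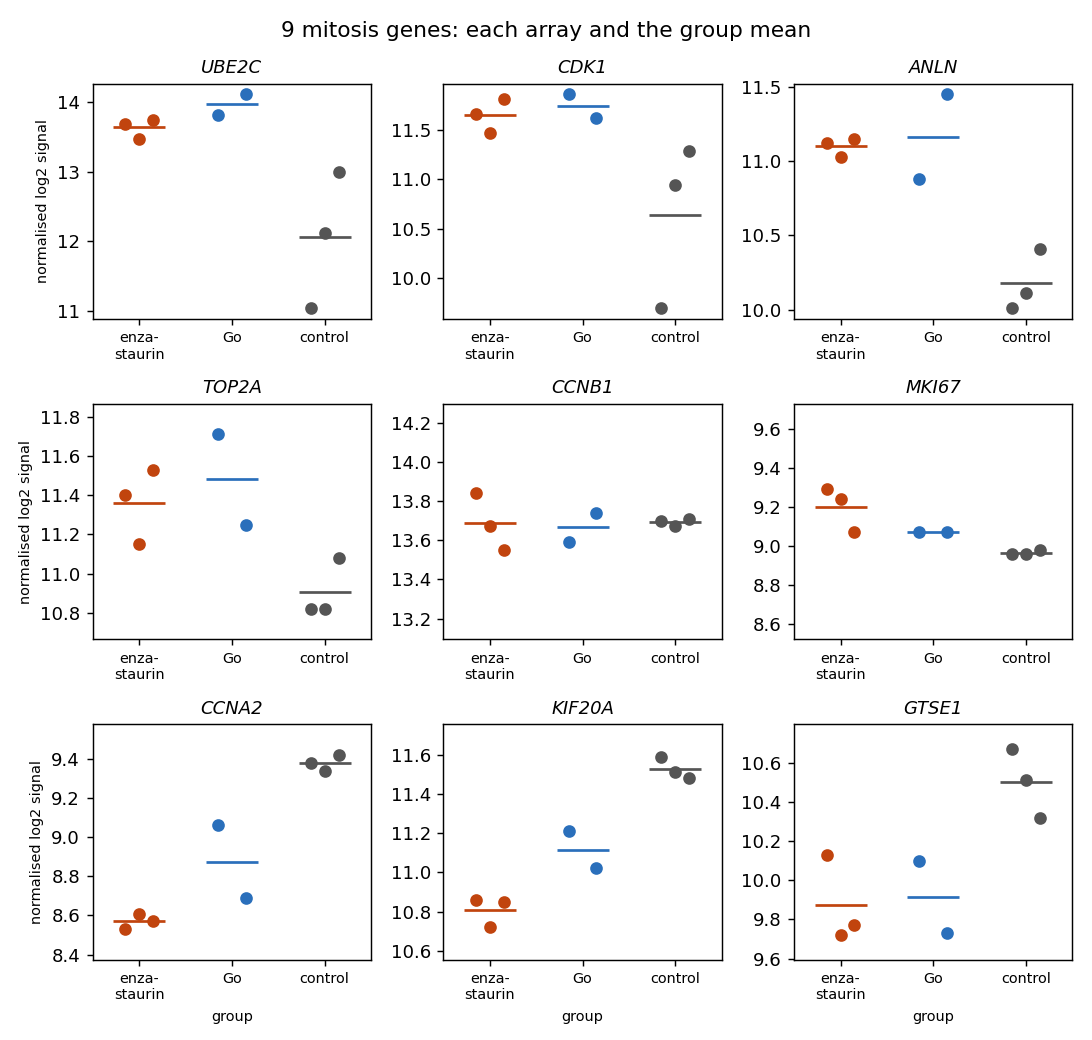
Log2 normalised signal of 9 mitosis genes on each array, with 1 point per array and a bar at the mean of the group (enzastaurin n = 3, Go n = 2, control n = 3). UBE2C and CDK1 have widely spread control points, CCNB1 and MKI67 lie close together in all groups, and for CCNA2 and KIF20A the Go points lie between those of enzastaurin and control.

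Of the 5 centromere and kinetochore genes, CENPA rose and CENPF fell with enzastaurin, and none passed with Go. CENPA, the histone H3 variant that marks the centromere, had a log2 signal of 9.55, 9.48 and 9.62 in enzastaurin and 9.45 and 9.67 in Go, against 8.92, 9.04 and 9.45 in control. Control 3 lay close to the treated arrays and the other controls below them. The difference was 0.41 ± 0.137 for enzastaurin (adjusted p = 0.0303) and 0.42 ± 0.153 for Go (adjusted p = 0.0618).

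CENPF, a large protein of the outer kinetochore, had a log2 signal of 13.62, 13.42 and 13.88 in enzastaurin and 14.22 and 13.79 in Go, against 14.03, 13.99 and 14.15 in control. Every enzastaurin array lay below every control, and the Go arrays lay on both sides of the controls. CENPF fell by 0.42 with enzastaurin (SE 0.143, adjusted p = 0.0336), and the difference for Go was -0.05 (adjusted p = 0.821). The CENPF difference for enzastaurin was 0.01 with the slide as a block. The second CENPF probe, a dimmer one, gave 0.25 for enzastaurin (adjusted p = 0.157 over all probes tested), so the probes of this gene disagreed in sign.

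NDC80 and NUF2, which together form part of the complex that holds microtubules, and the kinetochore motor CENPE passed in neither comparison with the probe that stood for each gene. NDC80 had a second, dimmer probe. On it the log2 signal was 8.11, 8.06 and 8.16 in enzastaurin and 8.57 and 8.08 in Go, against 8.80, 8.71 and 8.77 in control. That probe had a difference of -0.65 for enzastaurin (adjusted p = 0.00334 over all probes tested), and the brighter probe -0.24 (adjusted p = 0.0771). For Go the dimmer probe had -0.44 (adjusted p = 0.0442) and the brighter probe 0.03 (adjusted p = 0.847), so they disagreed.

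The chromosomal passenger complex corrects the attachment of chromosomes to the spindle and later marks the site of division. Of its 3 members measured, CDCA8 (borealin) fell with enzastaurin, while the kinase AURKB and BIRC5 (survivin) passed in neither comparison. CDCA8 had a log2 signal of 12.90, 12.64 and 12.90 in enzastaurin and 13.02 and 12.99 in Go, against 13.26, 13.22 and 13.16 in control. All treated arrays lay below all controls. The CDCA8 difference was -0.40 ± 0.0912 for enzastaurin (adjusted p = 0.00597) and -0.21 ± 0.102 for Go (adjusted p = 0.14), and with the slide as a block -0.37 for enzastaurin (adjusted p = 0.218).

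Of the 6 spindle genes, KIF11 rose and GTSE1 fell with enzastaurin, and DLGAP5 rose and GTSE1 fell with Go. GTSE1, a microtubule-binding protein that regulates p53, had a log2 signal of 10.13, 9.72 and 9.77 in enzastaurin and 10.10 and 9.73 in Go, against 10.67, 10.51 and 10.32 in control. No treated array reached the lowest control. GTSE1 fell by 0.63 with enzastaurin (SE 0.146, adjusted p = 0.00656) and by 0.58 with Go (SE 0.164, adjusted p = 0.0286). Its second probe gave -0.31 for enzastaurin (adjusted p = 0.0215 over all probes tested) and missed the threshold for Go (-0.16, adjusted p = 0.239).

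KIF11, the motor that pushes the spindle poles apart, had a difference of 0.29 ± 0.0961 for enzastaurin (adjusted p = 0.03). Its second probe gave -0.20 (adjusted p = 0.115 over all probes tested), so the probes of KIF11 also disagreed in sign. With the slide as a block the KIF11 difference was 0.00 (adjusted p = 0.989). DLGAP5 (HURP), which stabilises microtubules near chromosomes, rose by 0.36 ± 0.116 with Go (adjusted p = 0.0445). Without Go 2 the DLGAP5 difference was 0.19 (adjusted p = 0.278). TPX2, HMMR and NUSAP1, which help to build or bundle spindle microtubules, passed in neither comparison.

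The cytokinesis genes moved in both directions. With enzastaurin ANLN rose, and the motors KIF20A and KIF23 and the microtubule bundler PRC1, which act in the central spindle, fell. ANLN, anillin, which organises the contractile ring, had a log2 signal of 11.12, 11.03 and 11.15 in enzastaurin and 10.88 and 11.45 in Go, against 10.01, 10.11 and 10.41 in control. Treated and control arrays were far apart. ANLN rose by 0.92 ± 0.154 with enzastaurin (adjusted p = 0.00147) and by 0.99 ± 0.172 with Go (adjusted p = 0.00817). Fitted with the slide, ANLN had 0.35 for enzastaurin (adjusted p = 0.323) and 0.70 for Go (adjusted p = 0.0371), and for Go it passed the test in every setting run.

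KIF20A had a log2 signal of 10.86, 10.72 and 10.85 in enzastaurin and 11.21 and 11.02 in Go, against 11.59, 11.51 and 11.48 in control. The 3 groups did not overlap, with Go in the middle. KIF20A fell by 0.72 with enzastaurin (SE 0.0858, adjusted p = 0.000421) and by 0.41 with Go (SE 0.096, adjusted p = 0.0172). Its enzastaurin difference with the slide as a block was -0.53 (adjusted p = 0.0812). KIF23 had a difference of -0.32 for enzastaurin (adjusted p = 0.0229) and PRC1 of -0.42 (adjusted p = 0.00254). For Go, PRC1 fell by 0.30 (adjusted p = 0.0336), while the Go and control arrays of KIF23 overlapped.

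Both genes of mitotic chromosomes rose with enzastaurin. TOP2A, the topoisomerase that untangles sister chromatids, had a log2 signal of 11.40, 11.15 and 11.53 in enzastaurin and 11.71 and 11.25 in Go, against 10.82, 10.82 and 11.08 in control. The treated arrays lay above the controls, with enzastaurin 2 and control 3 close together. TOP2A rose by 0.45 ± 0.147 with enzastaurin (adjusted p = 0.0269) and by 0.58 ± 0.164 with Go (adjusted p = 0.03). Without Go 1 the Go difference was 0.34 (adjusted p = 0.133). Its differences were larger with the slide as a block, 0.92 for enzastaurin (adjusted p = 0.0662) and 0.81 for Go (adjusted p = 0.0303).

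MKI67 encodes Ki-67, the coat protein of mitotic chromosomes used as a marker of proliferation. Its log2 signal was 9.29, 9.24 and 9.07 in enzastaurin and 9.07 and 9.07 in Go, against 8.96, 8.96 and 8.98 in control. All groups lay close together, and every treated array lay above every control. The MKI67 difference was 0.24 ± 0.0814 for enzastaurin (adjusted p = 0.0338) and 0.10 ± 0.091 for Go (adjusted p = 0.396), with a 95% interval for Go of -0.10 to 0.31.

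Between the inhibitors, none of the 32 members passed the test (limma, Go minus enzastaurin), where 7.62% of all genes passed (4.64% higher and 2.98% lower). At an unadjusted p under 0.05 there were 4 members, all higher in Go: KIF20A, CCNA2, NDC80 and CENPF. The median difference was 0.12 over the members and 0.04 over all genes, with members between -0.14 and 0.37. None passed with the slide as a block (7.33% of all genes did) or with median scaling (7.92% of all genes did), where the member median was 0.00 and none had an unadjusted p under 0.05. The Go and enzastaurin arrays did not overlap for 9 members, 8 higher and 1 (MKI67) lower, where 47.9% of all genes did not overlap (29.1% higher and 18.8% lower).

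The 3 largest of these differences, chosen by size, were 0.37 for CENPF (95% interval 0.01 to 0.73, adjusted p = 0.189), 0.33 for UBE2C (-0.66 to 1.32, adjusted p = 0.665) and 0.31 for CCNA2 (0.05 to 0.56, adjusted p = 0.13). The lowest adjusted p was that of KIF20A, at 0.086, with a difference of 0.30. Without Go 2, CCNA2 and KIF20A passed (13.2% of all genes did). The dose of Go is unknown here, so the doses of the inhibitors could not be matched.

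**Figure D4:**
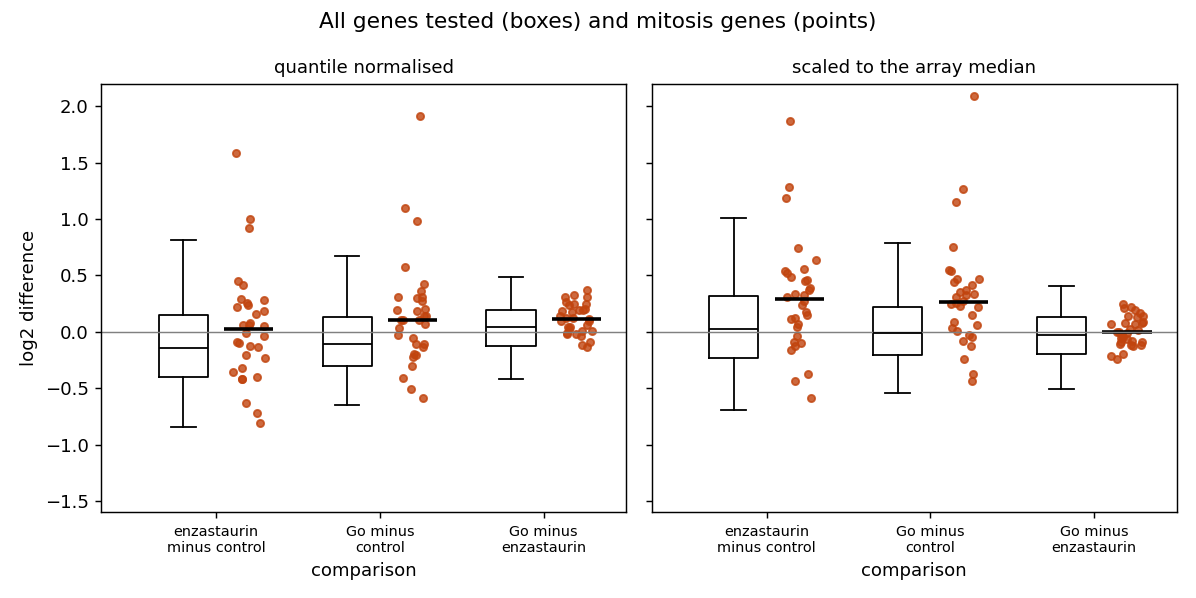
Log2 differences of the 32 mitosis genes (points, with a bar at their median) beside all 12640 genes tested (boxes from the lower to the upper quartile with a line at the median, whiskers at the 5th and 95th percentile), for 3 comparisons under quantile normalisation (left) and median scaling (right). The member median for enzastaurin is 0.02 on the left and 0.29 on the right, and UBE2C is the highest point in both comparisons with control.

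The members varied less than other genes within the control group, apart from a few. The range of log2 signal over the 3 controls had a median of 0.14 over the members and 0.23 over all genes, and it was under 0.3 in 24 members and over 0.5 in 3 (UBE2C, CDK1 and CENPA). Over the 3 enzastaurin arrays the median range was 0.18 over the members and 0.14 over all genes. Between the Go arrays, which lie on different inferred slides, it was 0.28 over the members and 0.17 over all genes. Go 1 was above Go 2 in 22 members and below it in 10.

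The members did not form a single pattern over the 8 arrays. Of 496 pairs of members, 18 (3.63%) had a Pearson correlation over 0.9, against 4.5% of all gene pairs, and the median correlation was 0.13, against 0.09. These correlations describe the same 8 arrays, and group, slide and array intensity are shared by all of them. The closest pairs were CENPF with NDC80 (0.982), KIF20A with PRC1 (0.978) and CCNA2 with KIF20A (0.972). UBE2C was closest to CENPA (0.96) and CDK1 (0.959), the members with the widest control ranges. CCNB1 was like no other member, with 0.418 for BIRC5 as its closest.

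Beyond the 32, 96 of 97 further mitosis genes were tested, and 16 rose and 36 fell with enzastaurin, with a median of -0.09, where 18% of all genes rose and 37.1% fell. With Go 14 rose and 18 fell, where 11.7% of all genes rose and 20% fell. The split turned with median scaling, to 33 higher and 13 lower for enzastaurin (median 0.12) and 15 higher and 3 lower for Go. The split of all genes turned too, with 47% and 23.1% of them passing. Of the genes that passed for enzastaurin, 71.7% were then higher in this list and 56.3% over all genes. For Go these shares were 83.3% and 59.4%. With the slide as a block 1 of the 96 (ZWINT) passed for enzastaurin and 3 (ZWINT, CDC25C and TACC3) passed for Go, all higher. Over all genes 3.75% and 6.57% passed in that fit. ZWINT, a kinetochore scaffold protein, had the largest enzastaurin difference, 1.67 ± 0.178 (adjusted p = 0.000323), and 1.22 ± 0.198 for Go (adjusted p = 0.00671). Its log2 signal was 12.04, 12.13 and 12.03 in enzastaurin and 11.21 and 12.02 in Go, against 10.30, 10.35 and 10.53 in control. In the fit with the slide ZWINT passed too, with 0.87 for enzastaurin (adjusted p = 0.0356) and 0.82 for Go (adjusted p = 0.0085). NCAPH, CDC25C, DSN1, TACC3 and FBXO5 followed among the called genes, with 0.86 to 0.98 for enzastaurin. None of these 5 passed for enzastaurin in the fit with the slide. There NCAPH had -0.44 (adjusted p = 0.111), CDC25C -0.00 (adjusted p = 0.991) and DSN1 0.84 (adjusted p = 0.226). TACC3 had 0.14 (adjusted p = 0.559) and FBXO5 0.73 (adjusted p = 0.135). Between Go and enzastaurin 5 of the 96 passed (5.21%), all higher in Go, where 7.62% of all genes passed (4.64% higher and 2.98% lower). Among the 5 were DEPDC1 (0.53, adjusted p = 0.0315) and the kinesin KIF2C (0.52, adjusted p = 0.0252). With median scaling 2 of the 96 passed, 1 higher and 1 lower, where 7.92% of all genes passed.

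The regulators of these promoters were measured as well. Of 18 tested E2F, MuvB and pocket protein genes (19 listed), 2 rose and 6 fell with enzastaurin. For Go the counts were 2 higher and 4 lower. Of all genes, 55.1% passed with enzastaurin (18% higher and 37.1% lower) and 31.7% with Go (11.7% higher and 20% lower). With median scaling 3 of the 18 were higher and 0 lower for enzastaurin, and 2 higher and 2 lower for Go. Of all genes 47% and 23.1% passed with that scaling, and of these 56.3% and 59.4% were higher. With the slide as a block 1 (RB1) passed for enzastaurin and 3 passed for Go (E2F4 and RB1 higher, RBL1 lower). Over all genes 3.75% and 6.57% passed in that fit. E2F4, a repressor E2F that acts with pocket proteins in resting cells, had a log2 signal of 10.38, 10.41 and 10.31 in enzastaurin and 9.69 and 10.40 in Go, against 8.28, 8.56 and 9.0 in control. E2F4 rose by 1.75 ± 0.207 with enzastaurin (adjusted p = 0.000411) and by 1.43 ± 0.232 with Go (adjusted p = 0.00671). RB1, the retinoblastoma protein, rose by 0.97 ± 0.129 with enzastaurin (adjusted p = 0.000603) and by 0.65 ± 0.144 with Go (adjusted p = 0.0156). In the fit with the slide RB1 had 1.18 for enzastaurin (adjusted p = 0.0428) and E2F4 1.05 (adjusted p = 0.0948). RBBP4, a subunit of MuvB, fell by 1.23 with enzastaurin (SE 0.443, adjusted p = 0.0415). Its log2 signal was 10.78, 10.79 and 8.83 in enzastaurin, against 11.42, 11.37 and 11.28 in control, with enzastaurin 3 far below the rest.

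The 42 DNA replication genes act before mitosis, in S phase. With enzastaurin 3 rose and 22 fell, with a median of -0.24, where 37.1% of all genes fell. With Go 1 rose and 21 fell, with a median of -0.31, where 20% of all genes fell. Median scaling gave 7 higher and 14 lower for enzastaurin, with a median of 0.00 and 21 genes on each side of 0, and 2 higher and 7 lower for Go, with a median of -0.14. Over all genes 47% and 23.1% passed with that scaling, and of these 56.3% and 59.4% were higher. ORC6, a subunit of the origin recognition complex, fell by 1.43 with enzastaurin (SE 0.178, adjusted p = 0.000482) and by 0.92 with Go (SE 0.199, adjusted p = 0.0146). UHRF1, which keeps DNA methylation through replication, rose by 1.07 ± 0.239 with enzastaurin (adjusted p = 0.00549), and PCNA, the sliding clamp, by 1.0 ± 0.177 (adjusted p = 0.00193). With the slide as a block none of the 42 passed with enzastaurin, and 3 passed with Go, all lower. Over all genes 3.75% and 6.57% passed in that fit.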

How the data were processed

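RNA of 8 samples was measured on single-colour arrays. Per the file headers, the scanner tables are GenePix files that give for each spot the percent of saturated pixels, a signal-to-noise score, and foreground and background intensity that is not normalised. The authors' deposited value table holds an intensity per probe. By comparison with the scanner tables it is linear, background-subtracted and not normalised, with array medians of 38 to 56 and no value under 0.5. The headers name a red channel, although the label dye was Cy3.

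The annotation columns of the scanner tables run end for end against the spots. The rank correlation over probes with the value table was 0.00724 to 0.013 as deposited and 0.99 to 0.994 reversed, and the SD of log2 signal over replicate spots was 3.65 to 4.06 as deposited and 0.487 to 0.615 reversed. The reversed annotation was used, and the signal came from the value table by probe. Of 41000 probes, 26787 were named through accessions or symbols in the RefSeq table (GRCh38.p14).

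Genes needed a signal-to-noise score over 3 on at least 2 arrays (52.1% to 57.3% of probes exceeded it on an array, and at most 0.654% of 153 negative control spots). Of a gene's probes the brightest was kept. Values were quantile normalised, 50 was added, and log2 values were fitted in 3 groups with limma 3.58.1 in R 4.3.3 (lmFit, eBayes, Benjamini-Hochberg, 0.05). The slide was inferred from spot positions.

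The members and lists were chosen with earlier results of these data known. Per-array values are given for CDK1, CCNB1, MKI67, FOXM1, the member with the largest difference from control in each role list, and the 3 largest differences between inhibitors. CDC20, KIF20A, the second NDC80 probe, ZWINT, E2F4 and RBBP4 were added, and the printed promoters chosen, after their values were seen. Alternatives were the scanner signal, pseudocounts of 1 and 16, scaling to the median or the 75th percentile, 2 other filters, the mean of a gene's probes, the slide or the replicate number as a block, and leaving out each array. Deviations from the group means had correlations of -0.143 to 0.172 between arrays with the same replicate number. Between arrays with unlike numbers they were -0.189 to 0.207. With means of only 2 or 3 arrays this cannot decide whether the numbers pair the samples.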

Additional observations from a re-analysis of the deposited data

How the results depend on the processing

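For enzastaurin minus control, 16 members passed the limma test. With the slide as a block 0 did (6 at an unadjusted p under 0.05), and leaving out 1 array gave 8 to 19: 8 without enzastaurin 1, without enzastaurin 2 or without control 2, 9 without control 1 and 10 without enzastaurin 3. Fewer samples enter such fits, here and for Go, and except without Go 2 their shares of all genes are not given. For Go minus control, 8 passed, against 5 with no filter on dim probes, 2 with the slide as a block and 1 to 12 with an array left out (1 without control 2, 5 without control 1 or without enzastaurin 1). In that comparison the slide block and leaving out Go 2 are the same fit. For Go minus enzastaurin, 0 passed, against 1 with the scanner signal and 0 to 2 with an array left out. Scaling to the median gave member medians of 0.29, 0.27 and 0.00 for enzastaurin minus control, Go minus control and Go minus enzastaurin, against 0.02, 0.10 and 0.12. The last ran from 0.05 to 0.20 with an array left out. The cause was not tested.

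Whether the replicate numbers mark paired samples is not known. With the replicate block 15 members passed for enzastaurin, 10 for Go and 0 between the inhibitors. Of all genes, 54.6%, 34.9% and 4.26% passed in that fit. The count of all genes between the inhibitors was 538, against 963. Over all genes the slide block gave 474 calls for enzastaurin and 831 for Go, against 6960 and 4002. Among called genes, 32.7% were higher with enzastaurin, 36.8% with Go and 60.9% between the inhibitors, against 56.3%, 59.4% and 37% with median scaling.

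Of 288 values of the 16 members called for enzastaurin, 216 stayed on their side of the threshold, 71 missed it and 1 changed sign (CENPF with the slide as a block, 0.01). Of 144 values of the 8 called for Go, 101 stayed and 43 missed it, with no change of sign. The difference of CCNB1 for enzastaurin was 0.01 with the scanner signal, 0.03 scaled to the 75th percentile, 0.27 scaled to the median and -0.16 with the slide as a block, and it ran from -0.08 to 0.06 with an array left out. For Go it was 0.02 and 0.15 with the same scalings, -0.10 with the slide as a block and -0.10 to 0.04 with an array left out. CENPF for Go was 0.08 scaled to the median, 0.14 with the mean of its probes, 0.17 with the slide as a block, 0.03 with the replicate block and -0.27 to 0.17 with an array left out.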

Other observations

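The wide control spread of UBE2C and CDK1 was shared by genes outside mitosis. The gene with the widest control range of all 12640 was PARD6G, a polarity protein, with a log2 signal of 13.24, 12.88 and 12.69 in enzastaurin and 12.34 and 13.25 in Go, against 7.84, 9.88 and 11.34 in control. CXCL8, the cytokine interleukin 8, had 10.67, 10.63 and 10.96 in enzastaurin and 10.93 and 10.58 in Go, against 5.77, 6.83 and 9.12 in control. GALNT3, an enzyme of protein glycosylation, had 12.77, 12.75 and 12.85 in enzastaurin and 12.28 and 12.84 in Go, against 8.25, 8.91 and 10.99 in control. In these 3 genes, chosen after their values were seen, as in UBE2C and CDK1, control 3 was the control nearest to the treated arrays. Among the 20 genes with the widest control range there were exceptions. CES1 had 6.92, 6.60 and 6.67 in enzastaurin and 9.64 and 6.78 in Go, against 6.97, 8.16 and 9.52 in control. NEUROG1 had 8.44, 8.72 and 8.19 in enzastaurin and 13.42 and 8.56 in Go, against 10.49, 11.94 and 12.84 in control. In both, control 3 was the control farthest from enzastaurin and Go 2 and nearest to Go 1. By spot position, control 3 lay beside Go 1 on the inferred slide, and control 1 lay farthest from it. Whether the position played a part was not tested.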
